A study of Mus musculus with 20 samples.

Results

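The 39 mouse genes described here make up the core of the cell division programme, and they were chosen by symbol from a list of replication, mitosis and cyclin genes. All 39 were found among the 34933 named genes of the deposited tables. They comprise 11 genes of S phase and replication licensing, 4 enzymes of nucleotide supply, 10 cyclins and regulators of cyclin-dependent kinases, and 14 genes of mitosis. Polyadenylated RNA was sequenced from livers of wild-type (WT) mice with diet-induced obesity (DIO in the labels). The 4 groups of 5 mice received vehicle, rosuvastatin, GGOH (geranylgeraniol) or Rosuvastatin+GGOH, called the combination below. Obesity and genotype were therefore shared by all groups, the vehicle mice included, and there was no lean group. The labels give no dose, duration, sex, age or batch. Rosuvastatin is a statin, an inhibitor of the reductase that commits carbon to the mevalonate pathway, and GGOH is the alcohol form of an isoprenoid made further down that pathway.

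A dividing cell first loads the MCM helicase onto replication origins with the help of Cdc6 and Cdt1, then copies its DNA in S phase with the sliding clamp Pcna and a supply of deoxynucleotides, and finally separates the copies in mitosis under Cdk1 and the B-type cyclins. Genes of the first wave are classical targets of E2F factors, and genes of the second wave are classically repressed in resting cells through the CHR element and activated through CCAAT boxes. The adult liver is largely quiescent, its hepatocytes enter the cycle after loss of tissue, and the immune, endothelial and biliary cells of the organ can divide as well. In cultured cells statins are known to slow the passage through G1 phase, and geranylgeranyl donors are known to relieve this.

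Libraries held between 8548120 and 18373913 estimated counts, with a median of 15697884. Mitochondrial genes took 27.9 and 29.2% of counts in combination mice 2 and 3 and between 8.06 and 17.1% elsewhere. A gene entered the tests if it passed a filter on low counts, which 12789 genes did. Of the 39 cell cycle genes 29 passed. The 10 that did not were Cdc6 (licensing), Cdkn3 and Foxm1 (kinase control), and Cdc20, Bub1, Bub1b, Aurkb, Plk1, Kif11 and Cenpf (mitosis). By role, 10 of 11 S-phase genes, 4 of 4 nucleotide genes, 8 of 10 cyclins and regulators and 7 of 14 mitosis genes passed. Markers of hepatocytes, the main cell of the liver, summed to between 41460 and 89780 CPM (counts scaled to a TMM-adjusted library size, not to gene length) in every library, and those of adipocytes to at most 0.297, with Lep at 0 throughout. The labels number the samples of a group without saying more of their origin, so they were taken as separate mice and each p-value measures the spread between these samples.

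Most of the programme was measured at low levels. On the TPM scale, which corrects for transcript length and depth, the mean over 20 mice was under 1 for 26 of the 39 genes. The median gene of the set had a mean of 0.629 TPM, against 4.12 TPM for all tested genes. Levels differed by role, from a median of 5.07 TPM for nucleotide supply to 0.234 TPM for mitosis. Pcna, the clamp that tethers DNA polymerases and also serves in DNA repair, was the most abundant at 19.5 TPM. It was followed by the nucleotide enzymes thymidine kinase (Tk1, 9.43 TPM) and thymidylate synthase (Tyms, 7.58 TPM), by cyclin D1 (Ccnd1, 4.49 TPM) and by the CDK inhibitor Cdkn1a (3.11 TPM). Neighbours in this order overlapped, since Tk1 ranged from 4.96 to 15.2 TPM and Tyms from 4.52 to 11.2 TPM over the 20 mice. Mki67, the antigen of dividing cells, had a mean of 0.135 TPM and a range from 0.0325 to 0.423 TPM. Kif11, the motor that separates spindle poles, was lowest at 0.077 TPM.

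**Figure D1:**
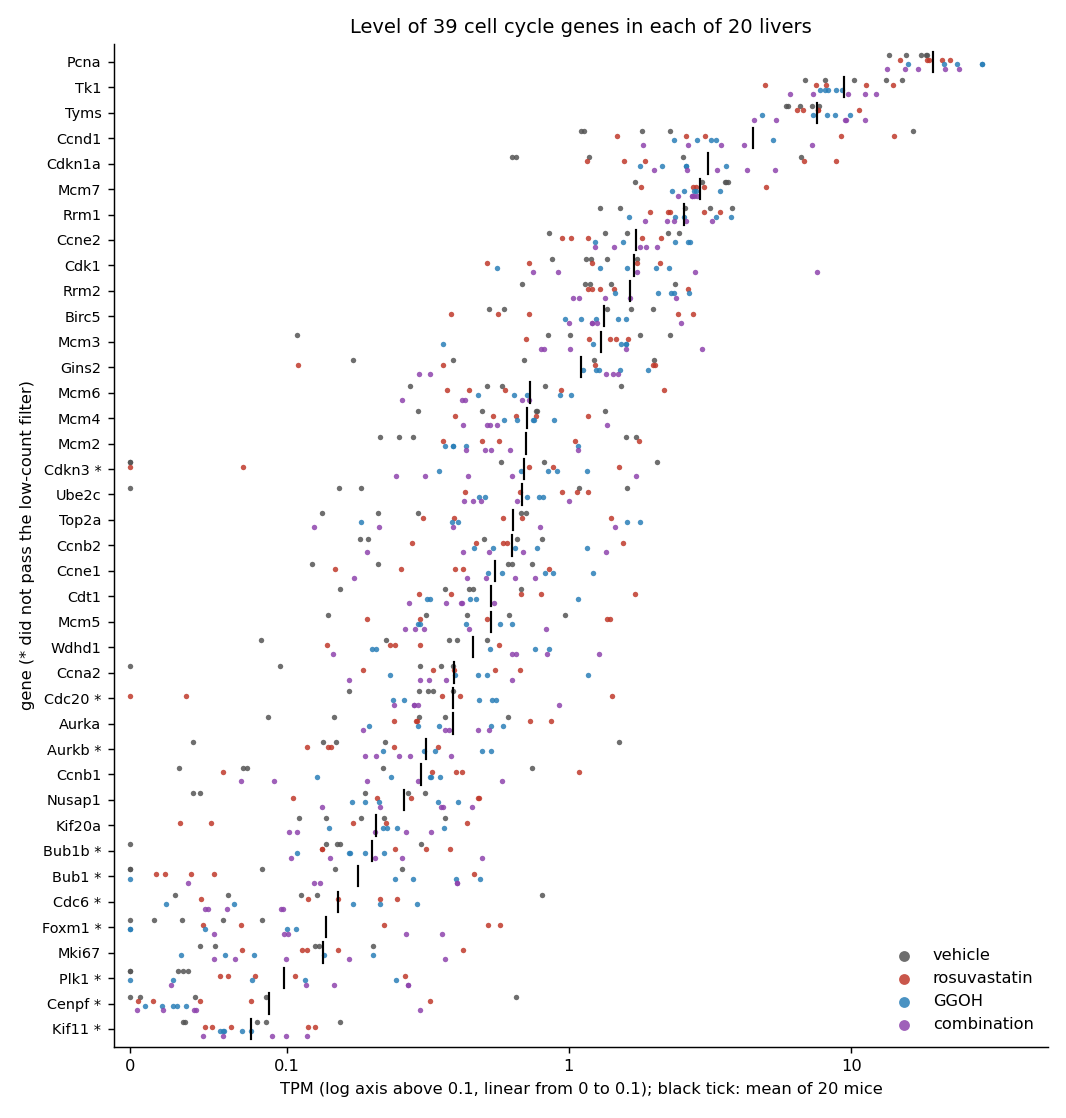
Level of each of the 39 genes in each of 20 livers, in TPM, on an axis that is logarithmic above 0.1 and linear from 0 to 0.1. Points are mice coloured by group, black ticks are means of 20 mice, and asterisks mark the 10 genes that did not pass the low-count filter. Pcna lies at the top at 19.5 TPM and 26 of 39 means lie under 1 TPM, with the 4 groups intermingled in each row.

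Counts behind the mitosis genes were small. The 14 mitosis genes together received between 47 and 282 counts per library. Their summed level, in CPM, was 7.41 ± 2.83 in vehicle, 8.80 ± 4.21 in rosuvastatin, 9.04 ± 2.95 in GGOH and 8.79 ± 2.17 in combination mice (mean ± SD, n = 5 each). The highest sum, 15.6 CPM, belonged to rosuvastatin mouse 5, and the lowest of any group, 4.49 CPM, to a vehicle mouse. The 4 ranges overlapped. The summed level of Mcm2 to Mcm7, the 6 subunits of the replicative helicase, was 15.3 ± 3.50 CPM in vehicle, 16.1 ± 5.19 in rosuvastatin, 15.8 ± 3.47 in GGOH and 13.9 ± 1.12 in combination mice.

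The promoters of these genes carry the elements through which the programme is known to be switched. RefSeq promoter windows on GRCm38.p6, from 250 bases before to 50 bases after the annotated start, were matched for 31 of the 39 genes. These genes had 33 windows, and a gene was counted if any of its windows matched. The share for all promoters was counted by window. The CHR (TTTGAA or TTCGAA, either strand) was present in the windows of 15 of 31 genes (48.4%), against 19.2% of all 32851 windows. The CCAAT box (CCAAT, either strand) was present in 22 genes (71.0%), against 37.4% of all windows. An E2F site (TTTCGCGC, TTTGGCGC, TTTCCCGC or TTTGCCGC, either strand) was present in 7 genes (22.6%), against 2.26% of all windows. The CHR divided by role, with a match in 10 of 12 mitosis genes, 3 of 6 cyclins and regulators, 2 of 9 S-phase genes and 0 of 4 nucleotide genes. The CCAAT box was found in every role, in 10, 4, 6 and 2 genes in the same order. All 15 genes with a CHR also had a CCAAT box. The 7 genes with an E2F match were Cdc6, Cdk1, Cdt1, Mcm3, Mcm5, Mcm6 and Mcm7, so that 6 of them act in licensing or the helicase. None of the 3 motifs was found in the windows of Birc5, Ccne1, Cdkn1a, Nusap1, Tk1, Tyms or Wdhd1. These are matches of letters and not measured binding.

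A few windows are shown as examples of the mitotic and the replication type, 5′ to 3′ on the strand of the gene, with motif matches in capitals. Ccnb2, cyclin B2 (chr9:70421505-70421804, minus strand), has CHR and CCAAT matches with a CCAAT box repeated 3 times. Top2a, topoisomerase II alpha (chr11:99024140-99024439, minus strand), has 6 CCAAT and 4 CHR matches, a palindromic TTCGAA being counted once. Mcm5 (chr8:75109259-75109558, plus strand) and Mcm6 (chr1:128359656-128359955, minus strand), whose RNA levels followed each other most closely of all pairs (below), have E2F and CCAAT matches and no CHR. A relation between the motifs and the RNA levels was not tested.
Ccnb2: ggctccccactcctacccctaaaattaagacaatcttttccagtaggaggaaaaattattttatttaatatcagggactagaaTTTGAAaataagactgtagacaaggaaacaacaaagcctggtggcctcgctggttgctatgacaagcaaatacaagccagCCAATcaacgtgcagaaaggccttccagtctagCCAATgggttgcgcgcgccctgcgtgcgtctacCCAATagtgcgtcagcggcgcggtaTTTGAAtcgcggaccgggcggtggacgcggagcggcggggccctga
Top2a: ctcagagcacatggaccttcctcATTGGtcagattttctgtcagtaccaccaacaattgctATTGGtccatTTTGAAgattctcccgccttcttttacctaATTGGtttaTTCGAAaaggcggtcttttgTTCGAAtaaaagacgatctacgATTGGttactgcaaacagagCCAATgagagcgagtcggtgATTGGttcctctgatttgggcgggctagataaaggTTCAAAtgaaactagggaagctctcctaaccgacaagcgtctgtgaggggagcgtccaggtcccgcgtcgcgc
Mcm5: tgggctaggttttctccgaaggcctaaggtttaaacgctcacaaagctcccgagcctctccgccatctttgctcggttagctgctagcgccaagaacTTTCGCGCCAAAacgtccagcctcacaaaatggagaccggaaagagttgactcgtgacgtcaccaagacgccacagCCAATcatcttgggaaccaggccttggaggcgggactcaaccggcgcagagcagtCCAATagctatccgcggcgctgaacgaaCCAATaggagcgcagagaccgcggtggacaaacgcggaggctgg
Mcm6: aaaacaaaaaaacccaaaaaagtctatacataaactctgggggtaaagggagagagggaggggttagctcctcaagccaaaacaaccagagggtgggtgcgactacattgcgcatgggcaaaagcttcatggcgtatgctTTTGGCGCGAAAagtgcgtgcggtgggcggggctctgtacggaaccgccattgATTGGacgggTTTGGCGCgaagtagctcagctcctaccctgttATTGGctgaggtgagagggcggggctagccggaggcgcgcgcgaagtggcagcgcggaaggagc
In Mcm5 the 2 E2F matches overlap on opposite strands, and Mcm6 has 3 matches of which 2 overlap in the same way.

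No cell cycle gene passed the test in any comparison, which does not show that the groups were alike. With edgeR's quasi-likelihood test and Benjamini-Hochberg adjustment over 12789 genes, 0 of the 29 tested genes and 0 of all genes (0% called) had an adjusted p under 0.05 in rosuvastatin against vehicle, GGOH against vehicle, combination against rosuvastatin, combination against vehicle, combination against GGOH, or the interaction of both compounds. The interaction asks whether the response to rosuvastatin differed with and without GGOH. The smallest adjusted p of a cell cycle gene over all of these was 0.348, in combination against GGOH. DESeq2 and limma also called 0 of these genes, and when the 10 low genes were tested as well without a filter the smallest adjusted p was 0.480. In bulk RNA of a liver, fewer dividing cells and less RNA per dividing cell cannot be told apart.

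The fitted differences were small as a group. The median log2 fold change of the 29 genes was 0.24 in rosuvastatin against vehicle and 0.27 in GGOH against vehicle, beside -0.02 for all tested genes in each. Both rested on single mice, at 0.03 and 0.09 without vehicle mouse 5, 0.06 without rosuvastatin mouse 5 and 0.12 without GGOH mouse 1. In both comparisons 19 of the 29 values were above 0, against 47.3% and 46.9% of all genes. In combination against vehicle the median was 0.03 (all genes 0.01), with 17 of 29 above 0, and the median turned to -0.12 without combination mouse 5 and to -0.06 without vehicle mouse 3. Combination against rosuvastatin gave a median of -0.12 and 9 of 29 above 0, and combination against GGOH gave -0.20 and 8 of 29 above 0, both beside 0.01 for all genes. The interaction had a median of -0.44, beside 0.02 for all genes, with 22 of 29 values below 0, and -0.20 without rosuvastatin mouse 3. These comparisons share groups and so are not separate observations.

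Few single genes came below an unadjusted p of 0.05, and their number was read against the share of all tested genes. In rosuvastatin against vehicle 0 of the 29 were higher (1.77% of all genes) and 1 was lower (1.92%). In GGOH against vehicle 2 were higher (1.26%) and 0 lower (1.6%), that is 2 in either direction against 2.86%. In combination against rosuvastatin 1 was higher (1.02%) and 0 lower (0.665%), and in combination against vehicle 1 was higher (2.69%) and 1 lower (2.81%), 2 in all against 5.5%. In combination against GGOH 0 were higher (8.95%) and 2 lower (5.04%). The share of all genes below the threshold in either direction, 14% there, was 5.6% without combination mouse 3, 6.38% without combination mouse 2, 7.04% without GGOH mouse 4 and 7.68% without GGOH mouse 1. It was 3.29% with combination mice 2 and 3 and vehicle mouse 1 left out together. In the interaction 0 were higher (2.1%) and 1 lower (0.79%), against 2.89% in either direction. Groups whose values did not overlap were seen for 1 of the 29 genes in combination against GGOH and for 0 in the other comparisons. Over all genes the share without overlap was 0.235% higher and 0.281% lower in rosuvastatin against vehicle, 0.195% and 0.235% in GGOH against vehicle, 0.086% and 0.18% in combination against rosuvastatin, 0.258% and 0.5% in combination against vehicle, and 0.93% and 1.33% in combination against GGOH.

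**Figure D2:**
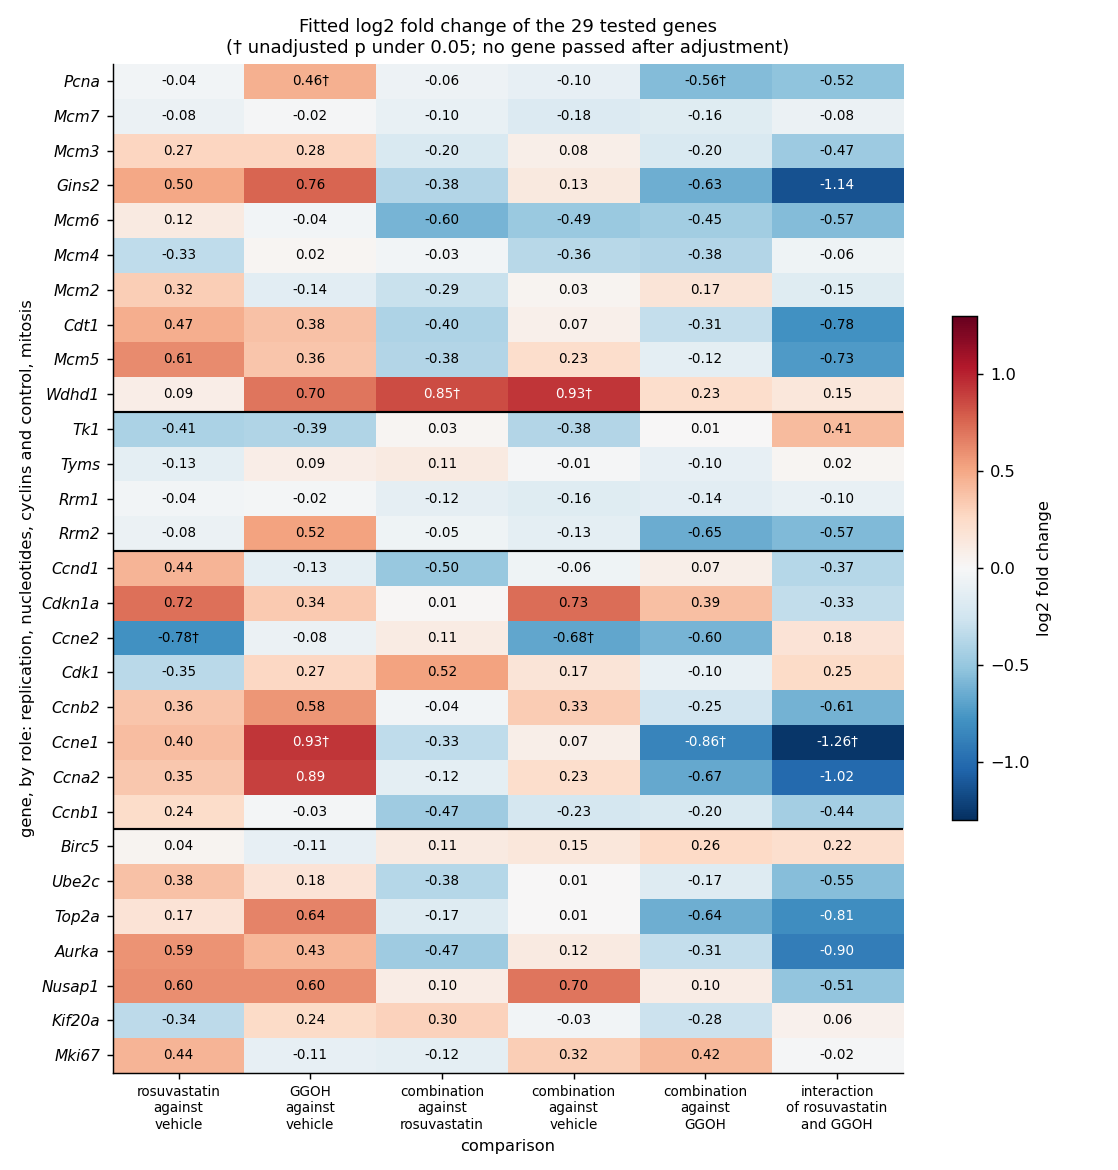
Fitted log2 fold change of the 29 tested genes (rows, by role) in 5 comparisons of 2 groups and in the interaction (columns), printed in each cell and coloured from blue (lower) to red (higher). Daggers mark an unadjusted p under 0.05, such as Ccne2 in rosuvastatin against vehicle at -0.78, and no value passed after adjustment.

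Among the S-phase genes, Pcna (chr2:132249162-132253314, minus strand, GENCODE on GRCm38) had its highest values in the GGOH group. In vehicle mice 1 to 5 it stood at 15.7, 29.7, 20.7, 32.9 and 27.4 CPM, and in GGOH mice at 46.7, 31, 30.9, 41.9 and 22.9 CPM. Rosuvastatin mice had 26.7, 22.1, 22.1, 26.9 and 24.9 CPM, and combination mice 22.7, 19.6, 17.5, 29.1 and 28.4 CPM. The top of the range belonged to GGOH mice 1 and 4, whereas GGOH mouse 5 lay within every other group, so the groups overlapped. The fitted log2 fold change of Pcna was 0.46 ± 0.21 (SE) in GGOH against vehicle (edgeR, unadjusted p = 0.0386, adjusted p = 1). In combination against GGOH it was -0.56 ± 0.21 (edgeR, unadjusted p = 0.0134, adjusted p = 0.348). Without GGOH mouse 1 these became 0.33 (unadjusted p = 0.133) and -0.43 (unadjusted p = 0.0529). The difference from vehicle also had an unadjusted p above 0.05 without vehicle mouse 1 (0.106), vehicle mouse 3 (0.0897) or GGOH mouse 4 (0.0997), and the difference between combination and GGOH had one without vehicle mouse 1 and combination mice 2 and 3 (-0.38, unadjusted p = 0.0762) and in limma on log2(TPM + 1) (-0.36, unadjusted p = 0.0689). Rosuvastatin against vehicle gave -0.04 ± 0.21 for Pcna and combination against vehicle gave -0.10 ± 0.21.

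Markers of several cell types moved with Pcna. GGOH mouse 1 had the highest summed neutrophil markers of all mice at 44.7 CPM. Over the list of 5 markers, of which 4 passed the filter, the sums ranged from 3.10 to 30.9 CPM in vehicle, 8.58 to 18.3 in rosuvastatin, 6.36 to 44.7 in GGOH and 6.01 to 18.36 in combination mice. Across the 20 mice, with group means removed, Pcna and this sum had a Pearson r of 0.723 (Spearman 0.630), and r was 0.633 without the 2 mice farthest from the median. Pcna also followed the summed markers of erythroid (r = 0.578), stellate (0.533), other macrophage (0.513), Kupffer (0.485), hepatocyte (0.472) and B cells (0.452). Lower values were those of sinusoidal endothelium (0.253), T and NK cells (0.133), cholangiocytes (0.033) and adipocytes (-0.087). With the mitochondrial share of counts Pcna had an r of -0.537. The part of these cells in the Pcna values was not tested.

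Wdhd1 (chr14:47240944-47276857, minus strand), an adaptor that links the helicase to the DNA polymerase of lagging-strand priming, had its highest values in combination mice. They stood at 0.703, 1.37, 1.39, 1.56 and 0.553 CPM, against 0.429, 0.467, 0.847, 0.752 and 0.382 in vehicle and 0.632, 0.613, 0.454, 0.697 and 0.664 in rosuvastatin mice. In GGOH mice the values were 0.976, 0.973, 1.26, 0.846 and 0.654 CPM. Combination mice 2, 3 and 4 lay above every vehicle and rosuvastatin mouse, while combination mouse 1 lay within the vehicle range and mouse 5 within both. In combination against vehicle the log2 fold change was 0.93 ± 0.34 (edgeR, unadjusted p = 0.0125, adjusted p = 0.817) and 0.85 ± 0.33 in combination against rosuvastatin (edgeR, unadjusted p = 0.0185, adjusted p = 1). It was 0.70 ± 0.34 in GGOH against vehicle (edgeR, unadjusted p = 0.0536). Combination mice 2 and 3 are also the libraries with the high mitochondrial share. Without them and vehicle mouse 1, the log2 fold change was 0.60 in combination against vehicle (unadjusted p = 0.175) and 0.60 in combination against rosuvastatin (unadjusted p = 0.139), and without combination mouse 4 the latter was 0.66 (unadjusted p = 0.0720). With limma on log2(TPM + 0.1) the unadjusted p was 0.0692 in combination against vehicle and 0.0531 in combination against rosuvastatin. Libraries held between 4 and 25 counts of this gene. With group means removed, Wdhd1 had an r of 0.51 with the mitochondrial share (0.255 without the 2 farthest mice). Wdhd1 also followed the summed markers of sinusoidal endothelium over the 20 mice (r = 0.604, and 0.590 without the 2 farthest mice). The highest sum of these markers, 177.8 CPM, was in combination mouse 2. The part of these cells in the Wdhd1 values was not tested.

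The helicase subunits and their loaders gave no value below the unadjusted threshold. Fitted log2 fold changes of Mcm2 to Mcm7 lay between -0.60 (Mcm6, combination against rosuvastatin) and 0.61 (Mcm5, rosuvastatin against vehicle) over the 5 comparisons of 2 groups. Cdt1, the loader of the helicase, had 0.810 ± 0.252 CPM in vehicle and 1.13 ± 0.331 in rosuvastatin mice. Its log2 fold change was 0.47 ± 0.33 (edgeR, unadjusted p = 0.162). Gins2, a subunit of the active helicase, had 0.635 ± 0.325 CPM in vehicle and 1.05 ± 0.321 in GGOH mice, a log2 difference of 0.76 ± 0.45 (edgeR, unadjusted p = 0.110). Cdc6, the other loader, was not tested and received between 1 and 7 counts per library.

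Of the enzymes of nucleotide supply none had an unadjusted p under 0.05 in any comparison. Tk1, which salvages thymidine, was measured at 5.68, 12.2, 15.1, 22.6 and 19.1 CPM in vehicle mice and at 10.8, 14.5, 4.82, 18.2 and 7.64 CPM in rosuvastatin mice. GGOH mice had 14, 9.42, 10.7, 11.8 and 10.9 CPM and combination mice 16, 8.09, 9.87, 9.64 and 13.3 CPM. The 2 lowest values, in rosuvastatin mouse 3 and vehicle mouse 1, come from different groups. Its log2 fold change was -0.41 ± 0.32 in rosuvastatin against vehicle, -0.39 ± 0.32 in GGOH against vehicle and -0.38 ± 0.32 in combination against vehicle.

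Tyms, which makes thymidylate, was the steadier of the pair. It had 6.91 ± 2.16 CPM in vehicle, 6.29 ± 0.735 in rosuvastatin, 7.32 ± 1.68 in GGOH and 6.77 ± 1.54 in combination mice (n = 5 each), and its log2 fold changes lay within -0.13 and 0.11. Ribonucleotide reductase makes deoxynucleotides. Its constitutive subunit Rrm1 had log2 fold changes between -0.16 and -0.02. The S-phase subunit Rrm2 had 4.18 ± 1.35 CPM in GGOH mice, 2.94 ± 1.41 in vehicle and 2.63 ± 0.969 in combination mice. Rrm2 had a log2 fold change of 0.52 ± 0.32 in GGOH against vehicle (edgeR, unadjusted p = 0.119) and -0.65 ± 0.32 in combination against GGOH (edgeR, unadjusted p = 0.0539, adjusted p = 0.359).

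The E-type cyclins drive entry into S phase together with Cdk2. Ccne2 (chr4:11191351-11204779, plus strand) was at or under 3.00 CPM in every mouse that received rosuvastatin. Mice given rosuvastatin alone had 2.11, 2.72, 1.93, 2.73 and 1.66 CPM, and combination mice had 2.62, 2.02, 3.00, 2.88 and 1.56 CPM. GGOH mice had 4.00, 3.28, 3.22, 4.23 and 3.51 CPM. Vehicle mice were split, with 4.02, 5.92 and 5.63 CPM in mice 2, 4 and 5 and 1.96 and 1.95 CPM in mice 1 and 3. On this scale all combination mice lay below all GGOH mice, the only case without overlap among the 29 genes in that comparison (1 of 29, beside 1.33% of all genes in that direction). The groups did overlap when counts were divided by library totals, at 1.76 to 3.28 against 3.11 to 4.08 CPM, and in TPM, at 1.24 to 2.06 against 1.24 to 2.68. The vehicle range overlapped both rosuvastatin groups.

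In rosuvastatin against vehicle Ccne2 had a log2 fold change of -0.78 ± 0.29 (edgeR, unadjusted p = 0.0141, adjusted p = 0.973). It was the 1 gene of 29 with an unadjusted p under 0.05 there. In combination against vehicle it was -0.68 ± 0.29 (edgeR, unadjusted p = 0.0309, adjusted p = 0.817). In combination against GGOH the estimate for Ccne2 was -0.60 ± 0.29 (edgeR, unadjusted p = 0.0505, adjusted p = 0.356). Without vehicle mouse 4 the differences from vehicle were -0.56 (unadjusted p = 0.0705) and -0.46 (unadjusted p = 0.126). Leaving out vehicle mouse 5 gave -0.59 (unadjusted p = 0.0610) and -0.50 (unadjusted p = 0.109). The difference of combination from vehicle also lost an unadjusted p under 0.05 without vehicle mouse 2 (0.0514), combination mouse 2 (0.0647) or combination mouse 5 (0.0845). On log2(TPM + 1) limma gave -0.15 (unadjusted p = 0.459) for rosuvastatin and 0.02 (unadjusted p = 0.924) for the combination against vehicle.

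Ccne1 (chr7:38097984-38107534, minus strand) had its highest values in GGOH mice, at 0.683, 1.02, 0.632, 0.959 and 1.25 CPM. Vehicle mice had 0.525, 0.280, 0.195, 0.752 and 0.668 CPM, rosuvastatin mice 0.702, 0.545, 0.567, 0.290 and 1.05 CPM, and combination mice 0.384, 0.547, 0.751, 0.376 and 0.503 CPM. Each group overlapped the GGOH group. Libraries held between 3 and 21 counts of this gene. The log2 fold change was 0.93 ± 0.39 in GGOH against vehicle (edgeR, unadjusted p = 0.0262, adjusted p = 1) and -0.86 ± 0.38 in combination against GGOH (edgeR, unadjusted p = 0.0350, adjusted p = 0.348). Ccne1 and Pcna were the 2 genes counted above as higher in GGOH against vehicle and as lower in combination against GGOH, comparisons that share the GGOH mice. The interaction of Ccne1 was -1.26 ± 0.55 (edgeR, unadjusted p = 0.0328, adjusted p = 0.999), and it was the 1 gene counted there. It was above the threshold in all 3 with limma on TPM, and in GGOH against vehicle without vehicle mouse 2 (unadjusted p = 0.0637), vehicle mouse 3 (0.0785) or GGOH mouse 5 (0.0718). In combination against GGOH leaving out GGOH mouse 2, 4 or 5 or combination mouse 1, 4 or 5 also put it above the threshold, with the highest unadjusted p at 0.0934 without GGOH mouse 5. For the interaction the same held for vehicle mouse 2 or 3, rosuvastatin mouse 5, GGOH mouse 5 and combination mouse 1 or 4, with the highest at 0.0778 without rosuvastatin mouse 5. Fitted on the 2 groups alone, GGOH against vehicle had 0 such genes, and limma on log2(TPM + 1) had 0 in combination against GGOH.

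**Figure D3:**
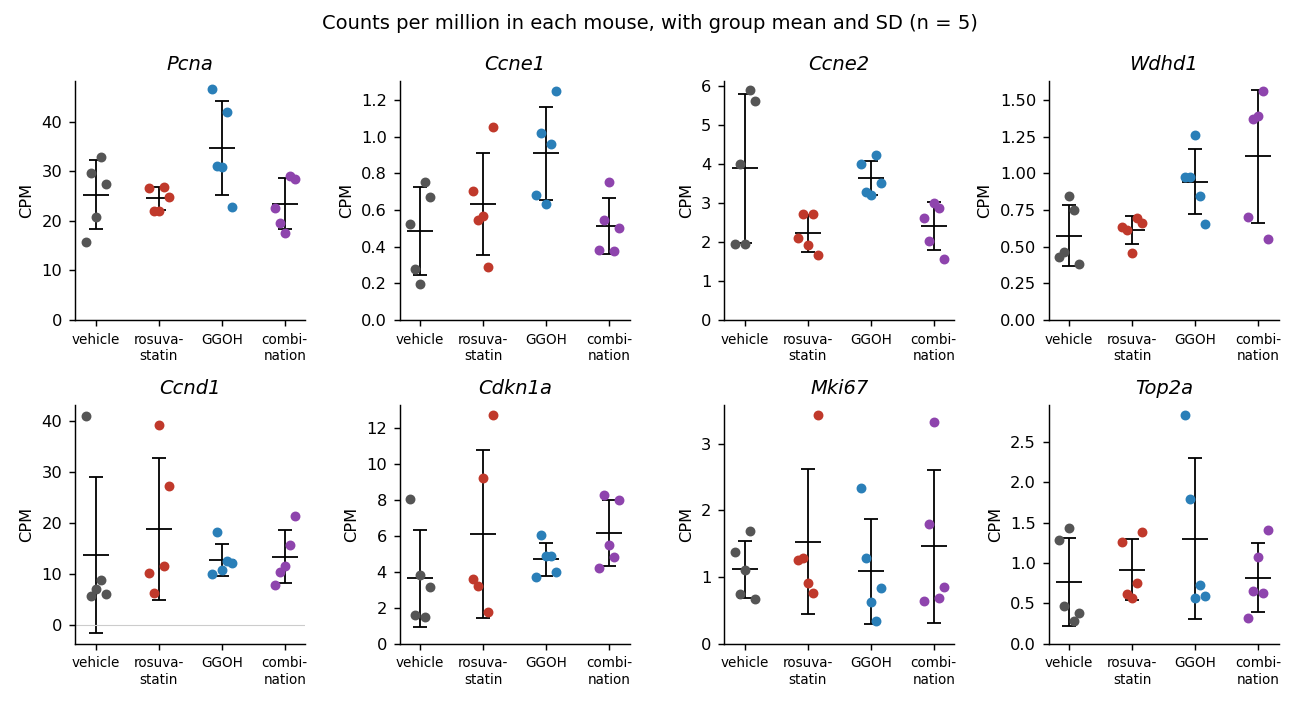
CPM of 8 genes in each mouse (points), with group mean (long bar) and SD (error bar) for 5 mice per group, on linear axes that differ by gene. For Ccne2 the combination mice all lie under the GGOH mice, at 2.42 ± 0.611 against 3.65 ± 0.448 CPM (the groups overlap in TPM and with counts over library totals), and for Ccnd1 single vehicle and rosuvastatin mice reach 41.0 and 39.2 CPM while most mice lie under 20. The vehicle error bar of Ccnd1 extends below 0 because its SD exceeds its mean.

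Ccnd1, the cyclin that couples mitogen signals to the first cyclin-dependent kinases of the cycle, differed more between mice than between groups. Vehicle mice had 41.0, 5.61, 7.03, 8.84 and 6.01 CPM, and rosuvastatin mice had 10.2, 6.13, 39.2, 11.5 and 27.1 CPM. GGOH mice had 9.96, 18.1, 10.8, 12.4 and 12.1 CPM and combination mice 7.86, 10.4, 11.5, 15.6 and 21.3 CPM. Vehicle mouse 1 and rosuvastatin mouse 3 stood far above the rest. In rosuvastatin against vehicle the log2 fold change of 0.44 ± 0.51 (edgeR, unadjusted p = 0.401, adjusted p = 0.973) moved to 1.48 (unadjusted p = 0.002) without vehicle mouse 1 and to 0.01 without rosuvastatin mouse 3. Without vehicle mouse 1, 13.6% of all genes had an unadjusted p under 0.05 in that comparison, against 3.69% with it. That mouse held the highest Ccnd1 value of its group, so leaving it out lowers the vehicle mean by construction.

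Cdkn1a, the CDK inhibitor induced by p53, was high in the same mice. It stood at 8.06, 1.59, 3.84, 1.5 and 3.15 CPM in vehicle mice and at 3.58, 3.20, 9.24, 1.74 and 12.7 CPM in rosuvastatin mice. GGOH mice had 3.71, 6.04, 4.87, 4.85 and 3.98 CPM, and combination mice 4.22, 8.26, 5.47, 4.82 and 8 CPM. All combination mice lay above vehicle mice 2 to 5 and overlapped the vehicle group only through vehicle mouse 1. The log2 fold change was 0.73 ± 0.46 in combination against vehicle (edgeR, unadjusted p = 0.129, adjusted p = 0.817) and 0.72 ± 0.46 in rosuvastatin against vehicle (edgeR, unadjusted p = 0.134, adjusted p = 0.973). Without vehicle mouse 1 both were 1.29, with edgeR unadjusted p of 0.00953 and 0.00949. The share of all genes with an unadjusted p under 0.05 then also rose, from 5.5 to 17.1% in combination against vehicle. In rosuvastatin against vehicle it rose from 3.69 to 13.6%. Vehicle mouse 1 held the highest Cdkn1a value of its group, so leaving it out lowers the vehicle mean by construction. Other removals made the differences smaller. Rosuvastatin against vehicle was 0.30 without rosuvastatin mouse 5 (edgeR, unadjusted p = 0.513). Combination against vehicle was 0.54 without vehicle mouse 4 (edgeR, unadjusted p = 0.27).

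The remaining cyclins and kinases belong to the later phases. Ccna2, the cyclin of S phase and early mitosis, had 0.595 ± 0.523 CPM in vehicle and 1.11 ± 0.310 in GGOH mice, a log2 difference of 0.89 ± 0.51 (edgeR, unadjusted p = 0.0939). Its vehicle values of 0.477, 0.374, 0.716, 1.41 and 0 CPM spanned those of the GGOH group except for its highest mouse. The B-type cyclins Ccnb1 and Ccnb2 and their partner Cdk1 had no unadjusted p under 0.05. Ccnb1 received between 1 and 20 counts per library. Foxm1, the factor that activates mitotic genes, did not pass the filter. It was at 0.0477, 0, 0.326, 0.0940 and 0.0955 CPM in vehicle and 0.351, 0.408, 0.567, 0.0581 and 1.22 CPM in rosuvastatin mice, and these ranges overlapped.

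The mitosis genes gave no value below the unadjusted threshold in any comparison. Mki67 was measured at 1.38, 0.747, 1.11, 1.69 and 0.668 CPM in vehicle, 1.26, 1.29, 0.907, 0.755 and 3.43 in rosuvastatin, 2.34, 1.28, 0.632, 0.338 and 0.832 in GGOH and 0.639, 1.80, 3.33, 0.689 and 0.855 in combination mice. A single mouse led each treated group, and all groups overlapped. In the combination group the highest values came from mice 3 and 2, the libraries of high mitochondrial share, and mouse 3 had the fewest counts. With group means removed, Mki67 had an r of 0.512 with the mitochondrial share (0.370 without the 2 farthest mice). With log2 total counts r was -0.608 (-0.204 without the 2 farthest mice). The log2 fold change of Mki67 was 0.44 ± 0.53 in rosuvastatin against vehicle, -0.11 ± 0.54 in GGOH against vehicle and 0.32 ± 0.54 in combination against vehicle.

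Top2a, which untangles replicated DNA, was measured at 1.29, 0.467, 1.43, 0.282 and 0.382 CPM in vehicle and 2.83, 1.79, 0.569, 0.733 and 0.594 CPM in GGOH mice. Rosuvastatin mice had 1.26, 0.613, 0.567, 0.755 and 1.38 CPM and combination mice 0.320, 0.656, 1.07, 0.626 and 1.41 CPM. GGOH mice 1 and 2 were the highest of all. The log2 fold change of Top2a was 0.64 ± 0.52 in GGOH against vehicle (edgeR, unadjusted p = 0.232) and 0.17 ± 0.53 in rosuvastatin against vehicle (edgeR, unadjusted p = 0.745). Nusap1, a spindle protein, had log2 fold changes of 0.60 ± 0.46 in both rosuvastatin and GGOH and 0.70 ± 0.46 in combination mice against vehicle. The kinase Aurka, the survival and cytokinesis factor Birc5, the ubiquitin-conjugating enzyme Ube2c and the kinesin Kif20a had log2 fold changes between -0.47 and 0.59 in the 5 comparisons of 2 groups. Plk1, the polo-like kinase of mitosis, was at 0, 0, 0.0651, 0.0940 and 0.0955 CPM in vehicle mice and at most 0.443 CPM elsewhere, and was not tested.

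The number of genes below the unadjusted threshold rested in part on 1 vehicle mouse. Vehicle mouse 4 had the highest value of its group for 16 of the 29 genes, and vehicle mouse 5 the lowest for 11. In GGOH against vehicle, 7 genes had an unadjusted p under 0.05 without vehicle mouse 4 (Ccna2, Ccne1, Gins2, Nusap1, Pcna, Rrm2 and Wdhd1), beside 4.29% of all genes, and 2 with it. In rosuvastatin against vehicle the genes were then 3 (Aurka, Ccnb1 and Nusap1), beside 3.12% of all genes. All of these genes were higher than in vehicle, whereas the shares of all genes count either direction. Vehicle mouse 4 was singled out for its high values of this same set. Leaving it out therefore tends to lower the vehicle mean by construction, and the larger counts are no support for a difference. None of these genes passed after adjustment.

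Genes of the same pathways outside the 39 were examined from fixed lists, and 0 of them passed after adjustment. Of 46 listed replication genes 39 were tested, and of these 7 were lower in combination against GGOH at an unadjusted p under 0.05 (17.9%, beside 5.04% of all genes), namely the origin recognition subunits Orc2 and Orc4, Gins1, the primase subunit Prim2, the clamp loader subunit Rfc3, the single-strand binding protein Rpa1 and the p53-inducible reductase subunit Rrm2b. The share of all genes in this comparison, 14% in either direction, rested on single libraries. It fell to 5.6% once combination mouse 3 was dropped and to 6.38% once combination mouse 2 was dropped. Both are the libraries of high mitochondrial share. Whether the 7 genes stay below the threshold after such removals is not reported here, so 17.9% is given as a description only. For Orc4 the log2 fold change in combination against GGOH was -0.61 ± 0.20 (edgeR, unadjusted p = 0.00571), and for Rrm2b it was -0.53 ± 0.15 (edgeR, unadjusted p = 0.00183, adjusted p = 0.348). Rrm2b had 4.69 ± 0.368 CPM in combination and 6.82 ± 0.910 in GGOH mice, and these groups did not overlap (1.33% of all genes in that direction), though they did in TPM. Among replication genes below the threshold in rosuvastatin against vehicle was Gins3, lower (beside 1.92% of all genes). The DNA ligase Lig1 was higher there, at 0.724 ± 0.592 CPM against 0.107 ± 0.156 CPM (beside 1.77% of all genes). Lig1 was near the floor in vehicle mice, where 1 count over the library total was 0.0596 to 0.0772 CPM and its SD exceeded its mean. The interaction of Lig1 named below rests in part on the same mice.

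Of 24 tested mitosis genes outside the 39, 2 were below the unadjusted threshold in combination against GGOH (8.33%, beside 14% of all genes). Spc25, a kinetochore subunit, had 6.04 ± 1.22 against 11.1 ± 1.51 CPM without overlap (1.33% of all genes in that direction), though with overlap in TPM, and the phosphatase Cdc25b had 0.752 ± 0.190 against 0.387 ± 0.210 CPM. Of 29 regulators of the E2F, Rb and CDK circuit, the D-type cyclins Ccnd2 and Ccnd3 were higher in rosuvastatin against vehicle at an unadjusted p under 0.05 (6.90%, beside 1.77% of all genes). Ccnd2 had 7.73 ± 0.401 against 5.60 ± 0.926 CPM, without overlap (0.235% of all genes) but with overlap in TPM (edgeR, unadjusted p = 0.0217, adjusted p = 0.973), and Ccnd3 had 15.1 ± 3.12 against 10.04 ± 3.64 CPM. In GGOH against vehicle Cdk2 was lower (log2 fold change -0.55 ± 0.21, beside 1.6% of all genes). Skp2, which marks CDK inhibitors for degradation, was higher (0.73 ± 0.32, beside 1.26% of all genes). Of 19 p53 targets and arrest genes, 2 were higher (Trp53 and Zmat3, 10.5% beside 8.95% of all genes) and 1 lower (Gadd45g, 5.26% beside 5.04%) in combination against GGOH. Plk3 was higher in combination against vehicle (18.2 ± 12.3 against 6.94 ± 3.37 CPM, beside 2.69% of all genes). Other genes of these lists below the unadjusted threshold follow, each with the share of all genes in the same direction. In GGOH against vehicle they included Pole and Cdc25b, lower (1.6%), and Gadd45b, higher (1.26%). In combination against rosuvastatin Ccnf was lower (0.665%). In combination against vehicle Rpa1 was lower (2.81%) and Ccnd2 higher (2.69%). Cdkn2c was lower in combination against GGOH (5.04%). In the interaction Pold1 was higher (2.1%) and Lig1 lower (0.79%). All of these were named for the smallest p within 4 lists and 6 comparisons and are given as a description. The median log2 fold change of these 4 lists lay between -0.19 and 0.24 in the 5 comparisons of 2 groups.

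The genes varied together between mice in patterns that crossed the groups. Pearson r was computed for all 406 pairs of the 29 genes on log2 CPM over 20 mice, after group means had been removed. The values share the libraries, their depth and their scaling, and are given as a description. The median r was 0.17, with 47 pairs above 0.5 and 11 below -0.5. The highest r was that of Mcm5 and Mcm6 at 0.837 (Spearman 0.910), whose promoter windows are printed above, and it was 0.858 without the 2 mice farthest from the median. Pcna and Tyms followed at 0.765 (Spearman 0.798), and Rrm2 and Cdk1 at 0.749 (Spearman 0.716). The lowest was that of Tk1 and Cdkn1a at -0.778 (Spearman -0.726).

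**Figure D4:**
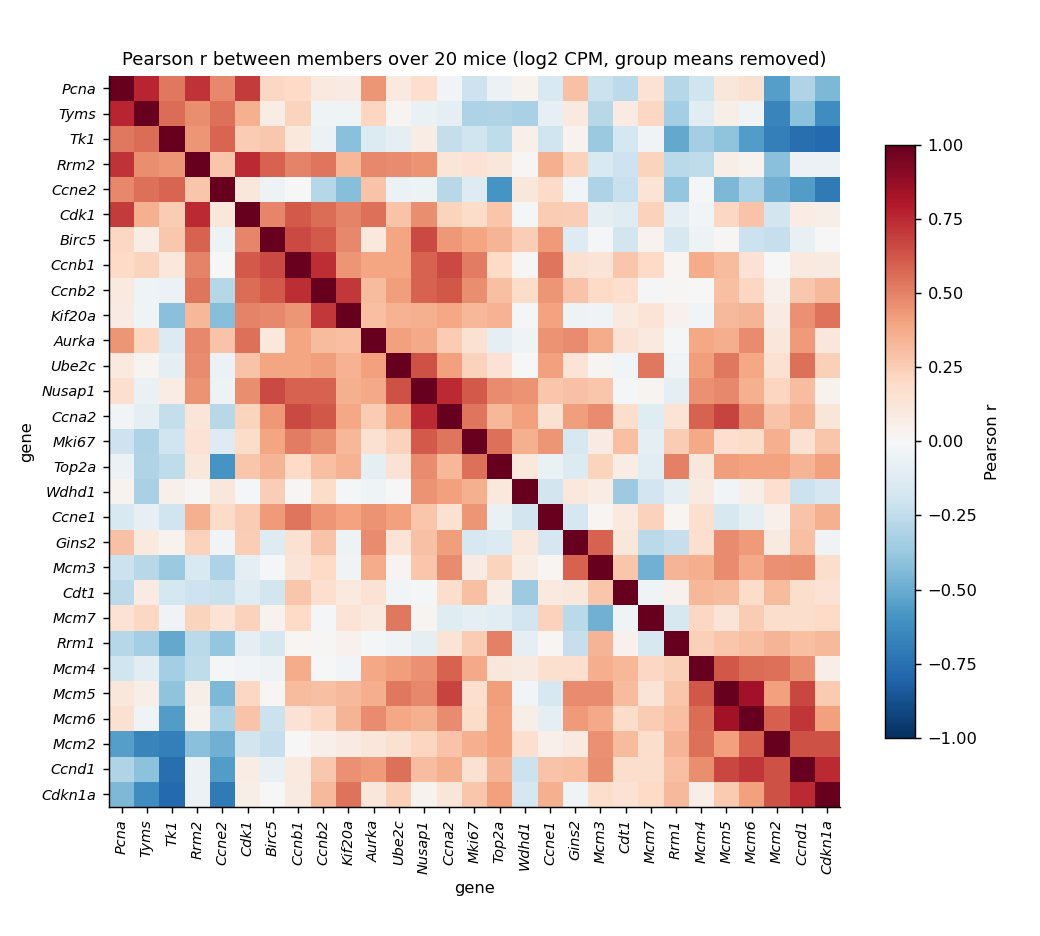
Pearson r between each pair of the 29 tested genes over 20 mice, from log2 CPM with group means removed. Negative values are blue and positive values red, and the order of the genes was set by hand to place the sets named below side by side. The red block in the centre holds the mitotic genes, the block at upper left holds Pcna, Tyms, Tk1, Rrm2 and Ccne2, and the block at lower right holds the MCM genes with Ccnd1 and Cdkn1a. The corners where the last 2 blocks meet are mostly blue.

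Some sets stood out in this matrix and were named after the values had been seen, so they carry no test. The mitotic set of 11 genes (Cdk1, Birc5, Ccnb1, Ccnb2, Kif20a, Aurka, Ube2c, Nusap1, Ccna2, Mki67 and Top2a) had a median r of 0.412, with 54 of 55 pairs above 0. A second set of 5 genes, Pcna, Tyms, Tk1, Rrm2 and Ccne2, had a median of 0.542. Another set of 5 genes, Ccnd1, Cdkn1a, Mcm2, Mcm5 and Mcm6, had a median of 0.639. Between these sets of 5 the median r was -0.417, and 20 of 25 pairs were below 0. The helicase subunits Mcm2, Mcm5 and Mcm6 thus varied with Ccnd1 and Cdkn1a. The 25 pairs include those of Ccnd1 and Cdkn1a, so their median does not describe the helicase subunits alone. Of these pairs 5 were above 0, with the highest r at 0.149.

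Ccnd1 and Cdkn1a varied together, most widely in a few mice. These genes had an r of 0.748 (Spearman 0.674), and 0.599 without vehicle mouse 1 and rosuvastatin mouse 3. Tk1 had an r of -0.757 with Ccnd1, and -0.460 without the same 2 mice. Vehicle mouse 1, with 41.0 CPM of Ccnd1 and 8.06 of Cdkn1a, had 5.68 CPM of Tk1, and rosuvastatin mouse 3 had 39.2, 9.24 and 4.82 CPM of the same 3 genes. Markers of other cell types moved along this axis. The 4 cholangiocyte markers, all of which passed the filter, summed to 7.58 CPM in vehicle mouse 1 and 9.98 in rosuvastatin mouse 3, in ranges of 4.97 to 7.58 in vehicle, 2.72 to 9.98 in rosuvastatin, 2.78 to 7.22 in GGOH and 3.00 to 6.04 in combination mice.

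Ccnd1 and the cholangiocyte sum had an r of 0.692 (0.529 without the 2 farthest mice), and Ccnd1 and the sum of 5 sinusoidal endothelial markers had an r of -0.727 (-0.501 without them). The endothelial sums ranged from 122.6 to 158.9 CPM in vehicle, 115.8 to 175.1 in rosuvastatin, 123.7 to 146.3 in GGOH and 126.2 to 177.8 in combination mice. Cdkn1a had an r of -0.676 with the 5 erythroid markers, whose sums ran from 384.3 to 3618 CPM over all mice. Of the 4 pancreatic acinar markers only Cela1 passed the filter and Prss1, Cpa1 and Ctrb1 were at 0, so that this sum is that of 1 gene. It ranged from 8.49 to 23.3 CPM in vehicle, 11.2 to 19.5 in rosuvastatin, 10.2 to 17.6 in GGOH and 10.6 to 15.2 in combination mice. It had an r of 0.813 with Tk1, 0.740 with Tyms, 0.720 with Ccne2, 0.712 with Pcna, -0.698 with Cdkn1a and -0.671 with Ccnd1. With Prss1, Cpa1 and Ctrb1 at 0, Cela1 was not read as a measure of acinar cells. No marker of the other lists named here was at 0 in all libraries. The part of cholangiocytes, sinusoidal endothelium and erythroid cells in the variation of Ccnd1, Cdkn1a, Tk1, Tyms, Ccne2 and Pcna was not tested.

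**Figure D5:**
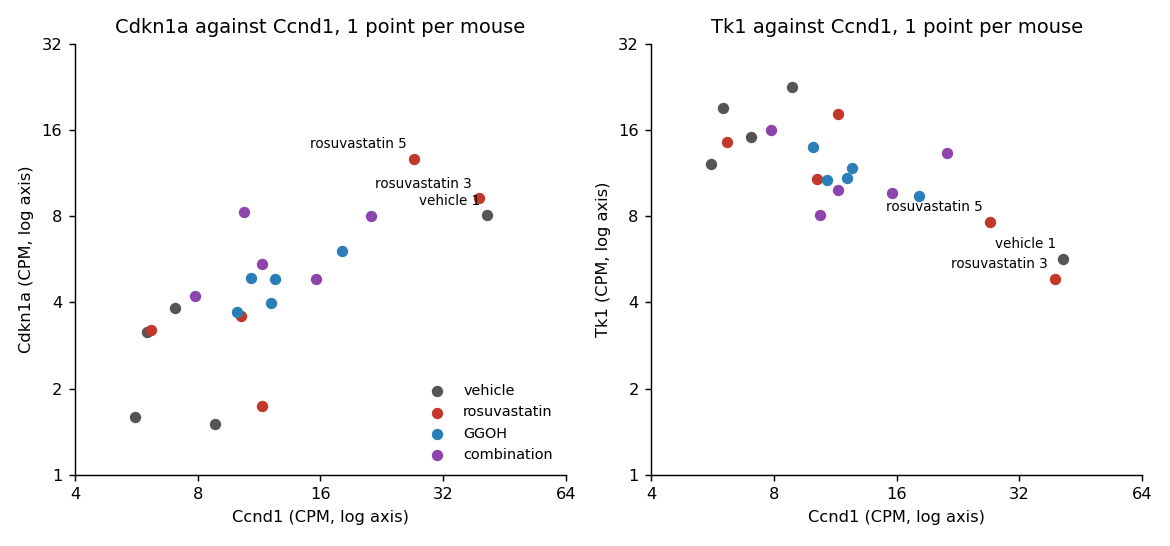
CPM of Cdkn1a (left) and Tk1 (right) against Ccnd1 on log axes, with 1 point per mouse coloured by group. Vehicle mouse 1 and rosuvastatin mice 3 and 5 lie at the right end, with high Cdkn1a (8.06 to 12.7 CPM) and low Tk1 (4.82 to 7.64 CPM), and the groups are otherwise intermingled.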

How the data were processed

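RNA of 20 livers was poly(A) selected and sequenced in pairs, per the labels' protocols. The submitters' processing notes name mouse build GRCm38 and the tools kallisto 0.44.0, bcl2fastq 2.19 and DESeq2, whose roles are not given in the sources used here. The authors deposited kallisto estimated counts per gene, already whole numbers, and TPM values per gene, which the authors corrected for depth and transcript length. The 1 entry without a gene name held 0.00801 to 0.0157% of a library's counts and was left out.

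Counts were tested with edgeR 4.0.16 (R 4.3.3, TMM scaling, filterByExpr by group, quasi-likelihood F test, a mean per group fitted over 20 libraries), with Benjamini-Hochberg adjustment over 12789 genes and a threshold of 0.05. The common biological coefficient of variation was 0.300. CPM values use library totals adjusted by TMM, and correlations use log2 CPM with a prior count of 2. No 2 libraries were identical. Alternatives were DESeq2 1.42.0, limma 3.58.1 on log2(TPM + 1) and log2(TPM + 0.1), other scaling and filters, the 2 groups alone, a replicate block, each library left out, and, added after seeing the data, 3 libraries left out together. The test script was tested on simulated data.

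The 39 genes, roles, lists, motifs and tests were chosen with earlier results of these data known. Named in each comparison were Mki67, Top2a, Ccnd1, Cdkn1a, the 5 genes of highest mean TPM and those with an unadjusted p under 0.05 (at least the 3 smallest p), and of each other list up to 4 genes with the smallest p under 0.05; others were named after their values were seen. Promoter sequences are from RefSeq on GRCm38.p6. One gene of the lists outside the 39 is not reported here.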

Additional observations from a re-analysis of the deposited data

Results flagged for a closer look

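In log2 CPM, 3 values stood apart from the other 4 mice of their group by Dixon's criterion, among 116 groups of 5 mice examined (29 genes in 4 groups). Chance alone is expected to mark about 1 in 20 groups, or 5.8 here. Ccnd1 in vehicle mouse 1, at 5.36, was the highest of the vehicle group. Mcm2 in GGOH mouse 2, at 1.79, was the highest of the GGOH group. Ccnb1 in GGOH mouse 3, at -1.97, was the lowest of the GGOH group.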

How the results depend on the processing

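In none of 173 counts over 29 alternative settings and 6 comparisons did a cell cycle gene have an adjusted p under 0.05, and the smallest was 0.180, without GGOH mouse 5. Of 1580 fold changes of named genes under these settings, 1538 moved by less than their error and 42 by more, and 122 changed sign, none of them called. The 173 medians over the genes moved by at most the SD between mice of a group (0.285), which is larger than the medians of the 5 comparisons between groups. Without single libraries they ran from 0.03 to 0.31 (rosuvastatin against vehicle), 0.09 to 0.39 (GGOH against vehicle), -0.21 to -0.05 (combination against rosuvastatin), -0.12 to 0.18 (combination against vehicle), -0.38 to -0.12 (combination against GGOH) and -0.63 to -0.20 (interaction).

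Counts of all genes past the threshold, 0 in the main analysis, were 4 (rosuvastatin against vehicle), 1 (GGOH against vehicle), 2 (combination against rosuvastatin) and 4 (combination against vehicle) with DESeq2. Without a low-count filter there was 1 gene in combination against rosuvastatin and 1 in combination against vehicle. With limma on log2(TPM + 1) there was 1 in each of the same comparisons, and on log2(TPM + 0.1) there was 1 in combination against vehicle. Leaving out single libraries gave 0 to 1 in each of both. The genes were Cyp2b10, Gm7666, Gm15542, Saa1, Saa2, Prg4 and Nfe2.

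Counts of cell cycle genes at an unadjusted p under 0.05 moved as follows, and the cause was not tested. In rosuvastatin against vehicle, 1 became 0 with either limma fit or the 2 groups alone, 3 without the 3 doubted libraries (vehicle mouse 1 and combination mice 2 and 3), and 0 to 3 without single libraries. In GGOH against vehicle, 2 became 1 with a stricter filter, 0 with the 2 groups alone, and 1 to 7 without single libraries. In combination against rosuvastatin, 1 became 0 with limma on log2(TPM + 0.1) or without the 3 libraries, and 0 to 1 without single libraries. In combination against vehicle, 2 became 1 with limma on log2(TPM + 1), 0 on log2(TPM + 0.1), 0 with the 2 groups alone, and 1 to 4 without single libraries. In combination against GGOH, 2 became 1 with the stricter filter, 4 with DESeq2, 0 with either limma fit, 4 with the 2 groups alone, 1 without the 3 libraries, and 1 to 4 without single libraries. In the interaction, 1 became 0 with the stricter filter or limma on log2(TPM + 1), and 0 to 5 without single libraries.

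Same-numbered mice of different groups did not deviate together (median r of 0.056 over 30 pairs, against 0.0222 over 120 other pairs), so the numbers were not taken to pair them. A replicate block left 0 calls among cell cycle genes and all genes in each comparison, with a smallest adjusted p of 0.436 for a cell cycle gene. Depth limits the mitosis genes most, at 47 to 282 counts per library for 14 genes together.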
